A study of Homo sapiens with 6 samples.

Results

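Retinoic acid is the active form of vitamin A, and the genes described here make it, break it down, carry it inside the cell or receive it. They are the 10 genes ALDH1A1, ALDH1A2, ALDH1A3, CYP26A1, CYP26B1, CYP26C1, RARB, DHRS3, CRABP1 and CRABP2, found by Ensembl ID among the 60107 genes of the deposited count table. All 10 were found, and all 10 passed the filter on low counts. They were measured by mRNA sequencing in H9, a widely used line of human embryonic stem cells, collected at the end of day 9 of a directed differentiation toward nephron progenitor cells, the cells from which the filtering units of the kidney form. The 3 libraries with glutamine came from cells kept in complete medium. The other 3 libraries came from cells deprived of glutamine, an amino acid used as a source of carbon and nitrogen, from the start of the differentiation. All 6 libraries are from 1 cell line, and the labels give the differentiation by reference to a published protocol without listing what was added to the medium. Nothing in the labels says that the libraries of a group came from separate cultures, so the p-values measure the spread between these libraries, which may be technical.

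Retinol is first oxidised to retinal and then to retinoic acid. The retinaldehyde dehydrogenases of the ALDH1A family carry out the second, irreversible step, and ALDH1A2 is the form best known from the mesoderm of the embryonic trunk. DHRS3 turns retinal back into retinol and so limits the supply. Cytochrome P450 enzymes of the CYP26 family oxidise retinoic acid to inactive products. The carrier proteins CRABP1 and CRABP2 bind retinoic acid in the cytoplasm, and CRABP2 hands it to the nuclear receptors. These receptors, RARA, RARB and RARG, bind DNA with an RXR partner and switch genes on when retinoic acid is bound. RARB, CYP26A1 and DHRS3 are textbook examples of genes that retinoic acid itself induces. In the embryonic kidney, retinoic acid made by stromal cells keeps the RET receptor expressed in the ureteric bud.

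The receptor's binding element is a direct repeat of a 6-base half-site. The promoter sequences are shown because 2 of these genes carry the classic form of that element, and because RARB and DHRS3 had nearly the same profile although, of this pair, only RARB has the element in its windows. RefSeq promoter windows on GRCh38.p14, each of 300 bases (250 before and 50 after a start site), were available for all 10 genes, 17 windows in all. They were searched on both strands for the half-site AGGTCA, its variant AGTTCA, the form GGGTCA and the form GGTTCA, repeated in 1 direction with 5 bases between them (DR5). The same search was made with 2 bases (DR2) and with 1 base (DR1) between them. DR5 was found in 31 of 35116 windows of all genes (0.0883%), and in 2 of the 17 windows here, 1 of RARB and 1 of CYP26A1. DR2 and DR1 were found in none of the 17, against 0.0399% and 0.131% of all windows. The repeats are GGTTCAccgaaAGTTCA in RARB, on the plus strand of chromosome 3 at 25428210 to 25428226, and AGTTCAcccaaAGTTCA in CYP26A1, on the minus strand of chromosome 10 at 93073803 to 93073819. They end 36 and 73 bases before the start site, and share the second half-site. In the first pair of lines, capitals mark the 2 half-sites of the repeat. In the second pair, capitals mark every single half-site present in the stretch, a feature that 38.6% of all windows have. Stretches that GENCODE 29 annotates as exon were left out, except for the short one around the CYP26A1 repeat, which lies inside an annotated exon. A match is a run of letters and says nothing about binding in these cells.
RARB, chr3:25428013-25428262, plus strand: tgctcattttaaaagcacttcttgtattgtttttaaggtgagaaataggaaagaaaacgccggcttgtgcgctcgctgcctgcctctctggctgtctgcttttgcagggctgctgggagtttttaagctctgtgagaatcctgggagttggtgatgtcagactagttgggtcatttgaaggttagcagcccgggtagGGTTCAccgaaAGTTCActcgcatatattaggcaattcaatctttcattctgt
CYP26A1, chr10:93073797-93073825, plus strand: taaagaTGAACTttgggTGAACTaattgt
DHRS3, chr1:12616796-12617039, minus strand: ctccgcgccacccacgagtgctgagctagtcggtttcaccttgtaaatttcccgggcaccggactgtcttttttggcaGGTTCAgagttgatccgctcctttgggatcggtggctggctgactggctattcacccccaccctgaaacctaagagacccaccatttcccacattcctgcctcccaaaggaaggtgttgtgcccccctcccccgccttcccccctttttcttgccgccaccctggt
CRABP2, chr1:156705817-156706034, minus strand: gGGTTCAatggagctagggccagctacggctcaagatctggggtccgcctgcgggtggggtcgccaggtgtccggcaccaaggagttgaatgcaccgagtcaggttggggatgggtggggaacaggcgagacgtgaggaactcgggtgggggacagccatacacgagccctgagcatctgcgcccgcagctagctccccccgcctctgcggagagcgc

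The libraries held 78220507 to 84746566 counts. Replicate 1 with glutamine stands apart from the other 2 libraries of its group: over all 22613 genes tested it lay nearer the mean of the libraries without glutamine for 62.1%, and for 81.1% of the 3059 genes on which the other libraries of the groups were apart by more than 1 on the log2 scale. It lay nearer that mean for 8 of the 10 genes described here, all but ALDH1A3 and CYP26C1. The fold changes of the 10 genes are therefore given with and without that library. It was singled out from these same counts. Leaving it out widens the difference of a gene for which it lay nearer the libraries without glutamine, unless it lay far beyond them. For RET, where it lay far beyond them, the log2 fold change went from -0.31 to 0.27. The FDRs of the comparison without that library are thus a description and no independent support for a change. Of the 9 nephron progenitor markers SIX2, SALL1, WT1, PAX2, EYA1, OSR1, CITED1, HOXD11 and HOXA11, all had more than 10 counts in at least 1 library, and their summed level was 630 to 883 CPM (counts scaled to 1e+06 per library) with glutamine and 809 to 1000 CPM without. Of these, HOXD11 had 44, 0 and 1 counts with glutamine and at least 277 without, and SIX2 was at 6.57, 34.8 and 27.8 CPM with and 7.27 to 9.7 CPM without. The pluripotency markers NANOG and POU5F1 summed to at most 0.163 CPM.

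Across the 10 genes, 5 had a mean level more than 2-fold higher without glutamine: the weakly expressed ALDH1A3 (3.06) and ALDH1A1 (2.87), the receptor RARB (2.16), CYP26B1 (2.14) and the retinal reductase DHRS3 (2.12). By the same measure CRABP2, ALDH1A2 and CYP26A1 were lower (0.556, 0.679 and 0.648 of the level with glutamine). With all 6 libraries none of these differences passed edgeR's quasi-likelihood test at a Benjamini-Hochberg adjusted p (FDR) under 0.05, a test that called 1 of all 22613 genes (0.00442%). At an unadjusted p under 0.05, edgeR gave 5 of the 10, namely ALDH1A3, CYP26B1, RARB and DHRS3 higher and CRABP2 lower. The same held for 29.7% of all genes tested. This count fell to 2, 3 and 2 when replicate 2 with glutamine, replicate 3 with glutamine or replicate 3 without glutamine was left out. The count over all genes tested fell too, from 6718 of 22613 to 3688 of 23089, 4522 of 23268 and 4692 of 23366. DESeq2 called 3 of the 10, ALDH1A3 and CYP26B1 higher and CRABP2 lower, against 14.4% of the 21306 genes that have an adjusted p there, as all 10 do (7.13% of all 43005 genes with a p). Limma-voom called none of the 10, with 6 at an unadjusted p under 0.05, beside 7047 of all 22613 genes. The groups did not overlap for ALDH1A3, CYP26B1 and CRABP2, against 34.2% of all genes tested. With replicate 1 without glutamine left out, 6 of the 10 genes did not overlap. Fewer libraries separate more easily, and the share of all genes was not computed for that omission. The median log2 fold change was 0.84, with 7 genes above 0 and 3 below, beside a median of 0 over all genes tested, and the median absolute value was 0.97 beside 0.25. Without replicate 1 with glutamine, edgeR called 8 of the 10, 5 higher and 3 lower, against 41.3% of 23164 genes, 22.3% higher and 19% lower. CRABP1 and CYP26C1 were the 2 not called there. In bulk RNA, fewer cells of a type and less RNA per cell cannot be told apart.

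**Figure D1:**
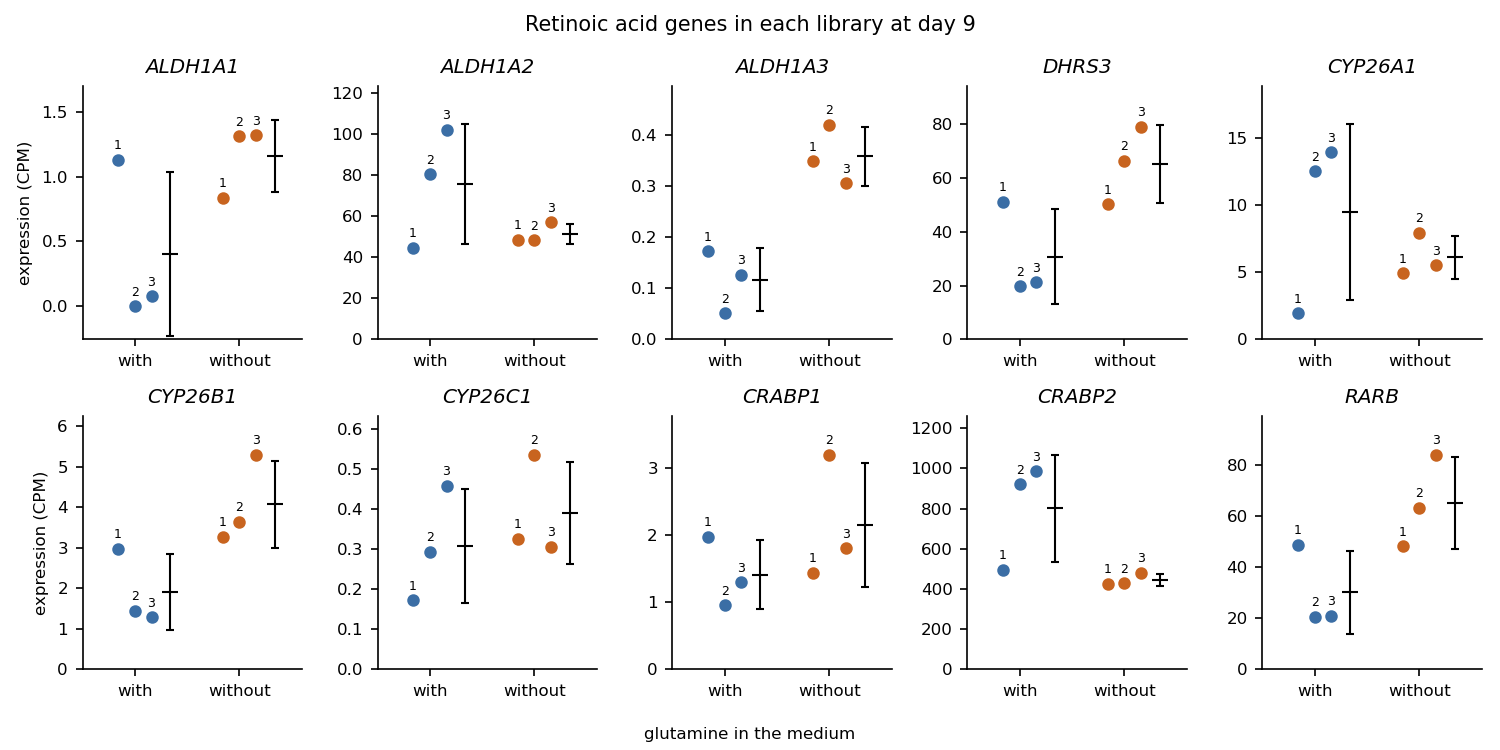
Expression of the 10 retinoic acid genes in CPM (y axis, linear, its own scale in each panel) in the 3 libraries with glutamine (blue) and the 3 without (orange), labelled by replicate number, with the mean and SD of each group beside the points. For RARB and DHRS3 replicate 1 with glutamine sits at 48.7 and 51.2 CPM, among the libraries without glutamine, while replicates 2 and 3 lie between 19.8 and 21.3 CPM; the SD bar of ALDH1A1 reaches below 0, where no value can lie.

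Most of the ALDH1A transcript came from ALDH1A2 (ENSG00000128918, chromosome 15 at 57953424 to 58497866, minus strand, GENCODE 29 on GRCh38). With glutamine it was at 44.5, 80.2 and 102 CPM in replicates 1, 2 and 3, and without at 48.4, 48.3 and 57.1 CPM. Replicates 2 and 3 with glutamine were above all 3 libraries without, and replicate 1 was below all of them. The means were 75.5 ± 28.9 CPM with and 51.3 ± 5.05 CPM without (SD, n = 3). The log2 fold change was -0.56 (SE 0.27, edgeR FDR 0.211), so the difference was not larger than the spread within the group with glutamine. Without replicate 1 it was -0.82 (SE 0.11, edgeR FDR 0.000321).

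ALDH1A1 and ALDH1A3, the other retinaldehyde dehydrogenases of the family, were expressed at low levels, and only for ALDH1A3 did the groups not overlap. ALDH1A1 (ENSG00000165092) had 92, 0 and 6 counts in replicates 1, 2 and 3 with glutamine and 72, 103 and 104 without. The 0 in replicate 2 allows up to 0.0384 CPM, taking 3 counts as the limit, which covers counting error only. Replicate 1 with glutamine, at 1.13 CPM, lay among the libraries without, at 0.837 to 1.32 CPM, while replicate 3 was at 0.0764 CPM. Its log2 fold change was 1.49 (SE 0.88, edgeR FDR 0.288) with all libraries. Without replicate 1 it was 4.86 (SE 0.58, edgeR FDR 0.000139), a value that rests on 6 counts in the 2 remaining libraries with glutamine and depends on edgeR's prior count. ALDH1A3 (ENSG00000184254) had 14, 4 and 10 counts with glutamine and 30, 33 and 24 without, so here all 3 libraries without were above all 3 with. Its log2 fold change was 1.59 (SE 0.37, edgeR FDR 0.0721, DESeq2 FDR 0.0308), and without replicate 1 with glutamine it was 1.99 (SE 0.41, edgeR FDR 0.00382). An antisense gene that shares 1585 exon bases with ALDH1A3 had 7 to 13 counts in each library, and the strand setting of the counting is not given, so reads of the 2 genes may be mixed. Per kilobase of exon, ALDH1A2 made up 99.9% and 99.6% of the summed ALDH1A level in replicates 2 and 3 with glutamine, 92.3% in replicate 1, and 91.3% to 94.1% without. The groups overlapped on this share (exact permutation test, two-sided, p = 0.3, where 3 against 3 cannot go below 0.1).

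DHRS3 (ENSG00000162496, chromosome 1 at 12567910 to 12617731, minus strand), the reductase that returns retinal to retinol, had levels with glutamine of 51.2, 19.8 and 21.3 CPM (replicates 1, 2 and 3) and without of 50.2, 66.4 and 79.1 CPM. Replicate 1 with glutamine lay just above the lowest library without, and replicates 2 and 3 were below all of them. The means were 30.7 ± 17.7 and 65.3 ± 14.5 CPM (SD, n = 3), which gave 1.09 as log2 fold change (SE 0.38, edgeR FDR 0.119). Left without replicate 1, the comparison gave 1.67 (SE 0.17, edgeR FDR 4.52e-05).

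RARB (ENSG00000077092, chromosome 3 at 25174332 to 25597932, plus strand), the receptor gene whose promoter carries the DR5 repeat, followed DHRS3 closely. It was at 48.7, 20.6 and 21 CPM with glutamine and at 48.2, 63.2 and 83.9 CPM without. As for DHRS3, replicate 1 with glutamine lay just above the lowest library without, and the other 2 libraries with glutamine were lower than all 3 without. The log2 fold change was 1.11 (SE 0.37, edgeR FDR 0.11) with all libraries and 1.65 (SE 0.19, edgeR FDR 0.000139) without replicate 1. TOP2B, a gene on the opposite strand that shares 28 exon bases with RARB, had 40698 to 48180 counts in each library.

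The level of DHRS3 divided by that of RARB was between 0.943 and 1.05 in all 6 libraries, with a mean of 1.01 in both groups (exact permutation test, two-sided, p = 0.9). This ratio was chosen after the values were seen, so its high p gives no support for a constant ratio. Among 10411 other genes with a mean of at least 10 CPM, RARB was the gene most like DHRS3, and DHRS3 the gene most like RARB. Likeness was measured as the Euclidean distance between log2 CPM values centred on each gene's mean over the 6 libraries, and this distance was 0.156. The next most like were CNTN4 for RARB (0.17) and SLC44A5 for DHRS3 (0.169). All these profiles come from the same 6 libraries, in which replicate 1 with glutamine lay apart for many genes.

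**Figure D2:**
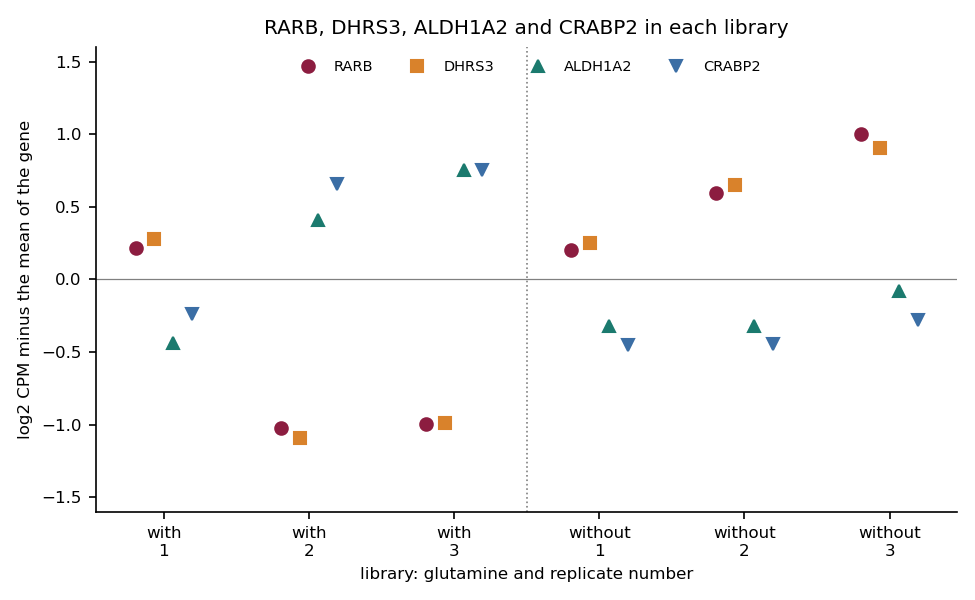
Log2 CPM minus the gene's own mean over the 6 libraries (y axis) for RARB, DHRS3, ALDH1A2 and CRABP2 in each library (x axis, glutamine and replicate number). RARB and DHRS3 lie close together in every library, near -1 in replicates 2 and 3 with glutamine, where ALDH1A2 and CRABP2 lie above 0.

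The CYP26 enzymes that break retinoic acid down did not share a direction. CYP26A1 (ENSG00000095596, chromosome 10 at 93073475 to 93077890, plus strand), the other gene with a DR5 repeat, had levels with glutamine of 1.95, 12.5 and 13.9 CPM (replicates 1, 2 and 3) and without of 4.92, 7.92 and 5.5 CPM. Replicate 1 with glutamine was the lowest of the 6 libraries and the other 2 of its group the highest, so the libraries without glutamine lay between them. Its log2 fold change was -0.63 (SE 0.61, edgeR FDR 0.508). Without replicate 1 it was -1.11 (SE 0.17, edgeR FDR 0.000718).

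CYP26B1 (ENSG00000003137, chromosome 2 at 72129238 to 72148038, minus strand) was at 2.98, 1.45 and 1.29 CPM with glutamine and at 3.28, 3.65 and 5.3 CPM without. There was no overlap, although replicate 1 with glutamine came close to the lowest library without. The log2 fold change was 1.09 (SE 0.35, edgeR FDR 0.103, DESeq2 FDR 0.0102), and without replicate 1 it was 1.58 (SE 0.23, edgeR FDR 0.00057). CYP26C1 (ENSG00000187553), the neighbour of CYP26A1 on chromosome 10, had only 14 to 42 counts in a library. Its log2 fold change was 0.33 (SE 0.4, edgeR FDR 0.591), and 0.04 (SE 0.34) without replicate 1. The 2 genes of this pair of neighbours therefore had different signs in both comparisons, though neither CYP26C1 value differed from 0 beyond its error. With all 6 libraries the sign of CYP26A1 was not established either (-0.63, SE 0.61, edgeR FDR 0.508).

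Per kilobase of exon, CYP26A1 was 1.1 times CYP26B1 in replicate 1 with glutamine, 14.5 and 18.3 times in replicates 2 and 3, and 1.75 to 3.66 times without glutamine. CYP26A1 was thus above CYP26B1 in all 6 libraries, and the groups overlapped on the ratio (exact permutation test, two-sided, p = 0.4). The 3 enzymes summed to 1.29, 4.55 and 5.04 CPM per kilobase with glutamine and to 2.38, 3.52 and 2.98 without (exact permutation test, two-sided, p = 1). The ratio of ALDH1A2 to that sum was 4, 2.04 and 2.34 with and 2.35, 1.59 and 2.22 without (exact permutation test, two-sided, p = 0.5).

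CRABP2 (ENSG00000143320, chromosome 1 at 156699606 to 156705816, minus strand) was by far the most abundant of the 10 genes. Its levels with glutamine were 496, 922 and 986 CPM (replicates 1, 2 and 3), and without 427, 430 and 481 CPM. Every library without glutamine was below every library with it, replicate 1 with glutamine by a small margin. The means were 802 ± 266 and 446 ± 30.4 CPM (SD, n = 3), and the log2 fold change was -0.85 (SE 0.24, edgeR FDR 0.0857, DESeq2 FDR 0.00583). Without replicate 1 the log2 fold change was -1.09 (SE 0.08, edgeR FDR 4.35e-06).

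CRABP1 (ENSG00000166426), the related carrier, was at 1.98, 0.96 and 1.3 CPM with glutamine and at 1.44, 3.2 and 1.81 CPM without. The groups overlapped, with a log2 fold change of 0.6 (SE 0.38, edgeR FDR 0.315). It was 0.92 (SE 0.34, edgeR FDR 0.0529) without replicate 1. CRABP2 exceeded CRABP1 per kilobase 226, 867 and 686 times with glutamine and 267, 121 and 240 times without (exact permutation test, two-sided, p = 0.3).

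CRABP2 and ALDH1A2 resembled each other less closely than did RARB and DHRS3. CRABP2 was 11.2, 11.5 and 9.7 times ALDH1A2 in CPM with glutamine and 8.83, 8.9 and 8.43 times without. This ratio did not overlap between the groups (exact permutation test, two-sided, p = 0.1, the smallest possible with 3 against 3). CRABP2 ranked 57 in likeness to ALDH1A2 at a distance of 0.42. The genes most like ALDH1A2 were ELAVL2 (0.245) and EPHA3 (0.272), and those most like CRABP2 were GRK5 (0.104) and MAN2A1 (0.158).

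**Figure D3:**
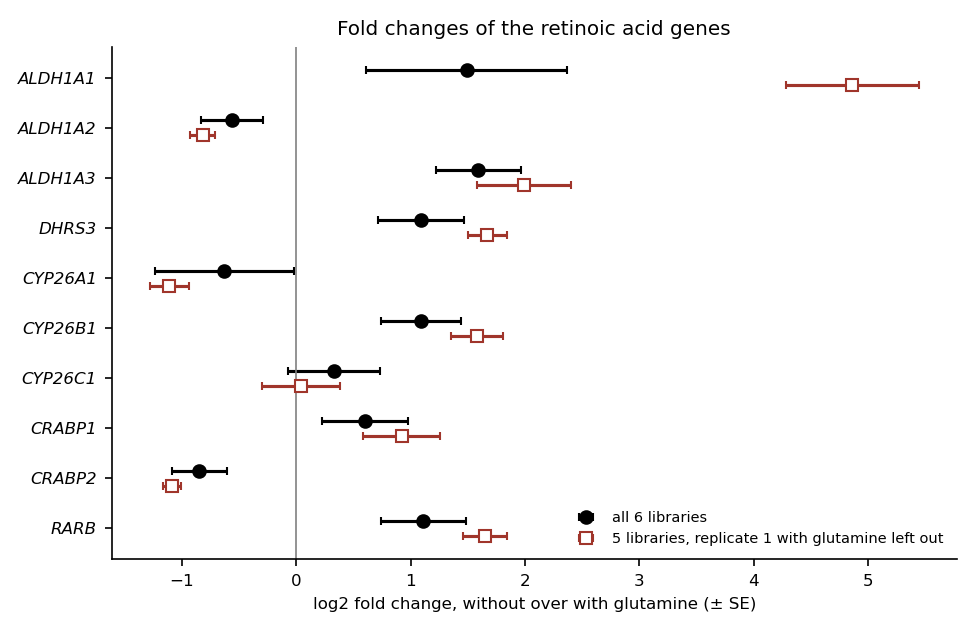
Log2 fold change without over with glutamine, with its SE (x axis), of each of the 10 genes (y axis) from all 6 libraries (filled circles) and from the 5 libraries left without replicate 1 with glutamine (open squares). Each gene has the same sign in both fits, and 9 of the 10 lie farther from 0 in the second; CYP26C1 moves from 0.33 to 0.04.

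Ordered by CPM per kilobase of exon, CRABP2 came first in both groups, at 729 ± 242 with glutamine and 405 ± 27.6 without (SD, n = 3). With glutamine DHRS3 (10.1 ± 5.83), ALDH1A2 (8.75 ± 3.35) and RARB (8.15 ± 4.35) followed and overlapped with each other. Without glutamine DHRS3 (21.5 ± 4.77) and RARB (17.6 ± 4.86) overlapped, and ALDH1A2 (5.95 ± 0.586) came after them with no overlap. DHRS3 was 3.27, 0.701 and 0.594 times ALDH1A2 in replicates 1, 2 and 3 with glutamine and 2.95, 3.9 and 3.94 times without (exact permutation test, two-sided, p = 0.2). CYP26A1 (3.18 ± 2.2 with and 2.06 ± 0.537 without) overlapped with CRABP1 (1.42 ± 0.525 and 2.17 ± 0.936) in both groups. CYP26B1 (0.38 ± 0.187 and 0.813 ± 0.214), ALDH1A1 (0.142 ± 0.222 and 0.407 ± 0.0977), CYP26C1 (0.0707 ± 0.0328 and 0.0891 ± 0.0293) and ALDH1A3 (0.0203 ± 0.0106 and 0.0621 ± 0.0101) closed the order. Of these last neighbours, CYP26B1 and ALDH1A1, and ALDH1A1 and CYP26C1, overlapped with glutamine, and CYP26C1 and ALDH1A3 overlapped without. The length is that of all annotated exons together, 8622 bases for ALDH1A2 and 1100 for CRABP2, so a gene with many alternative exons is set too low on this scale.

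Of the 21 other genes of the pathway, 20 were tested. EdgeR called none, DESeq2 called 3 (1 higher and 2 lower, beside 14.4% of all genes with an adjusted p), and limma-voom called none. At an unadjusted p under 0.05 edgeR gave 3 higher and 5 lower, beside 14.7% and 15% of all genes tested, and the groups did not overlap for 3 higher and 4 lower, beside 17.3% and 16.9%. The median log2 fold change was -0.13. Without replicate 1 with glutamine, edgeR called 5 higher and 5 lower of the 20, beside 22.3% and 19% of all genes tested there.

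With all 6 libraries, the widest difference on that list was that of STRA6, a gene of uptake. Of the 4 genes of uptake and storage, 2 were higher without glutamine and 2 lower, with a median log2 fold change of 0.43. The 2 higher ones had a mean under 1 CPM. Without replicate 1 with glutamine, edgeR called 2 of the 4 higher and 1 lower, beside 22.3% and 19% of all genes tested there. In that fit the 2 higher ones, with log2 fold changes of 2.29 and 1.87, lay farther from 0 than STRA6. STRA6, the cell surface receptor that takes retinol in, was at 54.8, 95 and 90.2 CPM with glutamine and at 35.8, 26.8 and 29.4 CPM without. All 3 libraries without were below all 3 with it, replicate 1 included. Its log2 fold change was -1.38 (SE 0.22, edgeR FDR 0.068, DESeq2 FDR 1.43e-07), and -1.59 (edgeR FDR 4.49e-06) without replicate 1. LRAT, which stores retinol as esters, was at 1.71 to 2.52 and 1.38 to 2.17 CPM, with a log2 fold change of -0.19 (SE 0.23) in both comparisons.

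RDH10, the main enzyme that oxidises retinol to retinal in the embryo and the counterpart of DHRS3, was at 74.2 to 87.2 CPM with and 81.5 to 94.3 CPM without. Its log2 fold change was 0.17 (SE 0.09, edgeR FDR 0.248), beside 1.09 for DHRS3, and the difference between them was not tested. Without replicate 1 it was 0.15 (edgeR FDR 0.222). RDH11 was at 82.3 to 97.8 CPM with and 108 to 122 CPM without, higher in all 3 (log2 fold change 0.4, SE 0.09, edgeR FDR 0.0724, DESeq2 FDR 0.0116). Without replicate 1 this was 0.49 (SE 0.07, edgeR FDR 0.00067). DHRS9 had at most 3 counts in any library and was not tested. FABP5, a lipid carrier that can also bind retinoic acid, was at 0.807 to 1.04 and 1.16 to 1.67 CPM.

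Among the receptors other than RARB, RARG was lower in all 3 libraries without glutamine, at 14.3 to 17.7 CPM against 21.2 to 22.6 CPM (log2 fold change -0.48, SE 0.11, edgeR FDR 0.0706, DESeq2 FDR 0.00666). It was -0.49 (SE 0.1, edgeR FDR 0.00411) without replicate 1 with glutamine, where no other receptor on the list was called. RARA was at 44.2 to 52.5 CPM with and 38.9 to 45.3 CPM without (-0.18, SE 0.1). The partners RXRA and RXRB had log2 fold changes of 0.08 (SE 0.14) and 0 (SE 0.09), and RXRG was at 0.845 to 1.47 CPM. Corepressors and coactivators, NCOR1, NCOA1, NCOA2, NCOA3 and NRIP1, had log2 fold changes from -0.5 to -0.12, and edgeR gave 3 of the 5, all lower, at an unadjusted p under 0.05, as it did 15% of all genes in that direction. Without replicate 1 edgeR called 2 of the 5, NCOA2 and NRIP1, both lower, as it did 19% of all genes tested there. NRIP1, itself a known target, was at 286, 451 and 464 CPM with glutamine and at 282, 257 and 310 CPM without. Replicate 1 with glutamine lay among the libraries without for this gene.

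Known targets of retinoic acid, 14 genes of which 12 were tested, lay on both sides, 4 above and 8 below 0. EdgeR called none, and DESeq2 called 2, both lower (HOXA4 and HOXB4), beside 14.4% of all genes with an adjusted p. At an unadjusted p under 0.05 edgeR gave 2 higher and 4 lower, beside 14.7% and 15% of all genes, with a list median of -0.19. Without replicate 1 with glutamine edgeR called 3 higher and 5 lower of the 12, beside 22.3% and 19%. HOXA4, a gene of axial patterning, was at 6.38, 9.74 and 8.79 CPM with glutamine and at 5.68, 4.91 and 3.99 CPM without (log2 fold change -0.77, SE 0.2, edgeR FDR 0.0799, DESeq2 FDR 0.00522). Its groups did not overlap, and without replicate 1 the value was -0.92 (SE 0.14, edgeR FDR 0.000683). CDX1, a posterior patterning gene, was at 1.16, 9.85 and 9.62 CPM with and at 1.43 to 1.84 CPM without. RARRES2 was at 9.81, 2.77 and 3.13 CPM with and at 9.69 to 13.6 CPM without. In CDX1 replicate 1 with glutamine was the lowest of the 6, and in RARRES2 it lay within the libraries without. Their log2 fold changes were -2.06 (SE 0.69, edgeR FDR 0.114) and 1.1 (SE 0.46, edgeR FDR 0.168), and without that library -2.56 (SE 0.13, edgeR FDR 5.55e-07) and 1.93 (SE 0.17, edgeR FDR 2.1e-05). MEIS1 and MEIS2 had log2 fold changes of 0.06 (SE 0.11) and -0.13 (SE 0.12). FGF8, which retinoic acid lowers in the embryonic trunk, was at 6.66 to 6.9 CPM with and 5.56 to 10.7 CPM without (log2 fold change 0.24, SE 0.23).

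**Figure D4:**
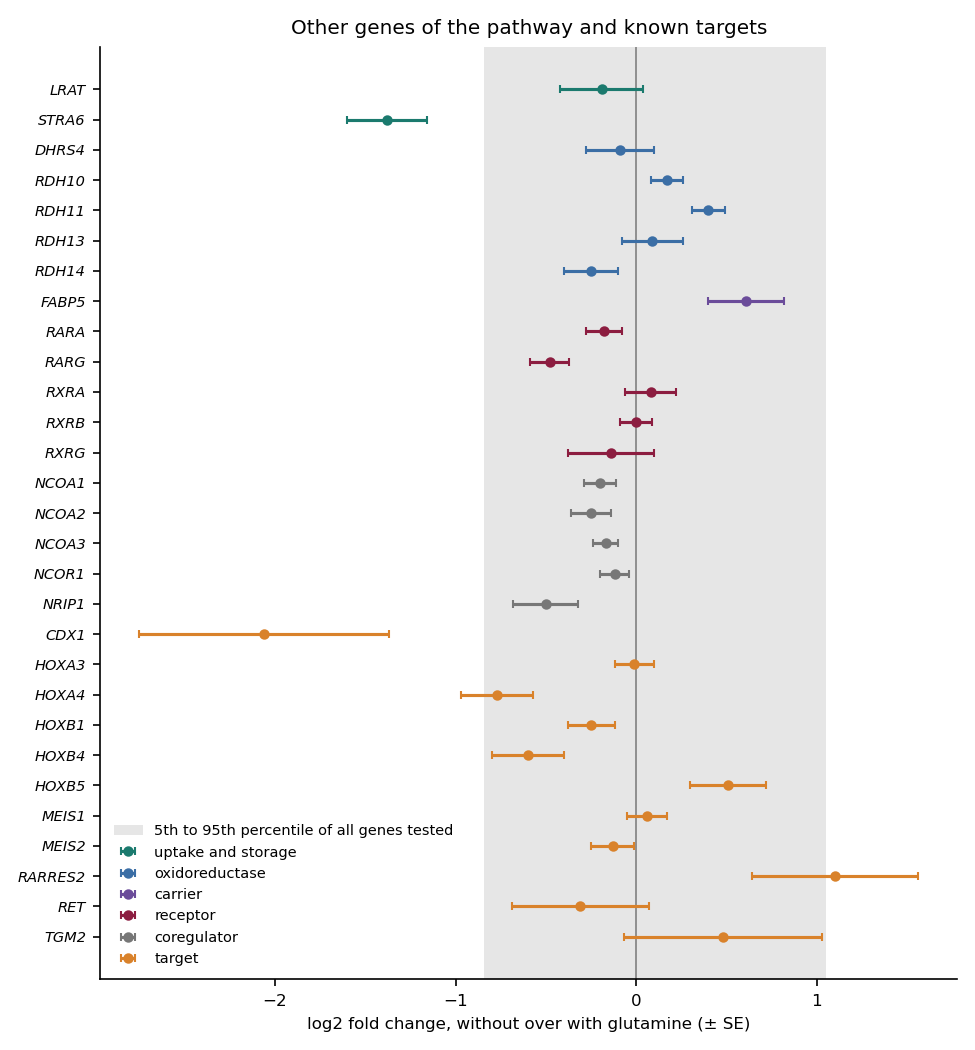
Log2 fold change without over with glutamine, with its SE (x axis), of the 29 other pathway genes and targets with a mean of at least 1 CPM (y axis, coloured by role), over the range from -0.84 to 1.05 that holds the central part of all genes tested (5th to 95th percentile, grey). STRA6 and CDX1 lie below the grey range, RARRES2 above it, and receptors and coregulators within it.

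Markers of cell types that make or answer to retinoic acid moved between the same libraries, and their part in these results was not tested. The 4 somite markers MEOX1, TCF15, PAX3 and UNCX summed to 72.2, 201 and 207 CPM with glutamine and to 116, 96.1 and 79.2 CPM without, with no marker free of overlap between the groups. Replicates 2 and 3 with glutamine were thus highest in this sum, as they were in ALDH1A2 and CRABP2. UNCX alone ran otherwise, at 14.1, 18.6 and 14.8 CPM with glutamine and at 34.3, 26.9 and 16.8 CPM without. The 3 renal stroma markers FOXD1, TBX18 and PDGFRA summed to 382, 231 and 244 CPM with and to 282, 317 and 456 CPM without. Their lowest libraries, replicates 2 and 3 with glutamine, were also the lowest in RARB and DHRS3, although FOXD1 alone was lower without glutamine, at 0.509 to 0.625 CPM against 0.776, 2.89 and 2.97 CPM with. The intermediate mesoderm and nephric duct markers LHX1, PAX8, GATA3 and RET summed to 734, 205 and 177 CPM with and to 998, 805 and 688 CPM without. LHX1 and GATA3 were higher in all 3 libraries without. RET, also on the list of known targets, did not follow the sum, at 7.92, 3.84 and 2.55 CPM with and 3.8, 3.61 and 4.11 CPM without. Its log2 fold change was -0.31 (SE 0.38, edgeR FDR 0.599). The presomitic mesoderm and primitive streak markers (4 genes) summed to 4.61 to 8.89 CPM with and 3.76 to 5.02 CPM without, and the neural markers (3 genes) to 15.1 to 26.9 and 15 to 20.3 CPM. The lateral plate markers summed to at most 0.872 CPM, with HAND1 at 0 to 3 counts. The endoderm markers SOX17 and FOXA2 summed to at most 0.794 CPM, and FOXA2 had no count in any library with glutamine.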

How the data were processed

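The authors deposited raw counts per Ensembl gene, 1 column per library. The submitters' processing notes name Trim Galore, cutadapt, FastQC, STAR 2.5.2b, DESeq2 and GRCh38, and per the labels' protocols the libraries were stranded mRNA libraries. The counting program, annotation and strand setting are not given in the sources used here. Column headings name days 0 and 9 while the labels place every sample at day 9, so columns were assigned by the headings in each sample's description. Every direction rests on that. A normalized table was not used here.

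The main test was edgeR 4.0.16 in R 4.3.3 on all 6 libraries: filterByExpr, TMM scaling, glmQLFit (legacy off, robust off), glmQLFTest, Benjamini-Hochberg adjustment (FDR) over 22613 genes, threshold 0.05. CPM are counts scaled to 1e+06 with TMM-scaled library sizes. SE is the absolute log2 fold change divided by the square root of F. Symbols, positions and exon lengths came from GENCODE 29 (56531 of 60107 IDs matched). DESeq2 1.42.0 and limma 3.58.1 gave alternatives, with other scalings, no filter, the legacy setting, a replicate block and each library left out. The test was checked on simulated counts drawn for each gene independently. No library there stood apart as replicate 1 with glutamine did, so the check cannot speak to that library's effect on the calls. Members and lists were chosen with earlier results of these data known, and the ratios after seeing values. All 10 genes are named, list genes from a mean of 1 CPM (others only as counts), and the 2 most alike per gene of at least 10 CPM. Some genes of the lists are not reported here and enter no list count.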

Additional observations from a re-analysis of the deposited data

How the results depend on the processing

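All 140 values of the 10 genes under the alternatives kept their direction, 129 also kept their side of the threshold and 11 became called, 8 of them without replicate 1 with glutamine and 3 under DESeq2. The count of all genes called went from 1 to 0 with limma-voom, the replicate block, the legacy setting, upper quartile scaling and plain library sizes, to 2 with no filter and to 3065 under DESeq2. DESeq2 called 3 of the 10 genes and 3 of the other pathway genes. With 1 library left out, from 0 to 9573 genes were called (17 when replicate 1 without glutamine was left out), and from 3688 to 11454 had an unadjusted p under 0.05. Of the 10 genes, 0 to 8 were called and 2 to 9 had an unadjusted p under 0.05, and of the other pathway genes 0 to 10 and 3 to 14. From 3 to 9 of the 10 genes did not overlap, with no share of all genes computed for these omissions, where fewer libraries separate more easily. All these maxima belong to the omission of replicate 1 with glutamine, where the common dispersion was 0.0083 against 0.0408, and the cause was not tested. Upper quartile scaling moved the split of genes at an unadjusted p under 0.05 from 3334 higher and 3384 lower to 2628 and 4295. No pairing by replicate number was seen: the deviations of same-numbered libraries correlated at -0.02, 0 and 0.03, and not every library correlated best with its own number. With the replicate block 0 of the 10 genes were called and 5 had an unadjusted p under 0.05, beside 6280 of all 22613. ALDH1A3, CYP26C1 and ALDH1A1 are limited by depth, with as few as 4, 14 and 0 counts in a library.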
